A study of Mus musculus with 7 samples.

Results

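Transcripts of 10 genes of the VEGF system were followed in endothelial cells sorted from fetal mouse lung: the ligand genes Vegfa, Vegfb, Vegfc and Pgf, the receptor genes Flt1, Kdr and Flt4, the neuropilin genes Nrp1 and Nrp2, and Esm1. They were found by gene symbol among the probe sets annotated with exactly 1 symbol, 1 probe set for each gene, and all 10 of 10 were measured, out of 22180 genes in all. Lungs came from embryos at E18.5 on a C57BL/6 background, either Sash1-/- or wild-type littermates, and each array carried RNA of viable cells sorted as positive for CD31 and negative for CD45 and CD326. Labels gave 3 arrays to the wild type and 4 to the knockout. The labels name no other allele, no agent and no Cre driver, do not state which part of Sash1 was removed, and do not state whether a sample was 1 embryo or a pool, so p-values measure only the spread between these samples, which may be technical.

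VEGF ligands are secreted dimers that bind receptor tyrosine kinases on endothelial cells. VEGF-A, made in the lung chiefly by epithelial cells, signals through KDR (VEGFR2), while FLT1 (VEGFR1) holds VEGF-A, VEGF-B and placental growth factor with little kinase output and acts as a trap. VEGF-C signals mainly through FLT4 (VEGFR3), a receptor of lymphatic endothelium and of sprouting vessels. Neuropilins are co-receptors that also bind class 3 semaphorins, and Esm1 encodes endocan, a proteoglycan that VEGF-A induces in tip cells.

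None of the 10 genes passed the test between labels. With limma across 16637 genes, 0 were called below 0.05 after Benjamini-Hochberg adjustment (0% of the background), so the count of 0 of 10 VEGF genes equals the background. Before adjustment, limma's p was under 0.05 for 556 genes, or 3.34% (2.38% higher and 0.962% lower on the knockout-labelled arrays), and for 1 VEGF gene, Nrp1, which was higher. A difference beyond 0.5 log2 units in either direction was seen in 2.54% of all tested genes, and among the VEGF genes in Esm1 alone (-0.50). For 408 genes, or 2.45%, the arrays of the 2 labels did not overlap, and for 0 of the 10 VEGF genes. The median difference of the 10 genes, knockout-labelled minus wild-type-labelled, was -0.04 log2 units, with 4 positive and 6 negative, beside a median of 0.015 over all tested genes, of which 53.9% were positive and 45.6% negative. Signals are on the log2 scale, where 1 unit is a doubling, and levels of different probe sets are not set against each other.

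**Figure D1:**
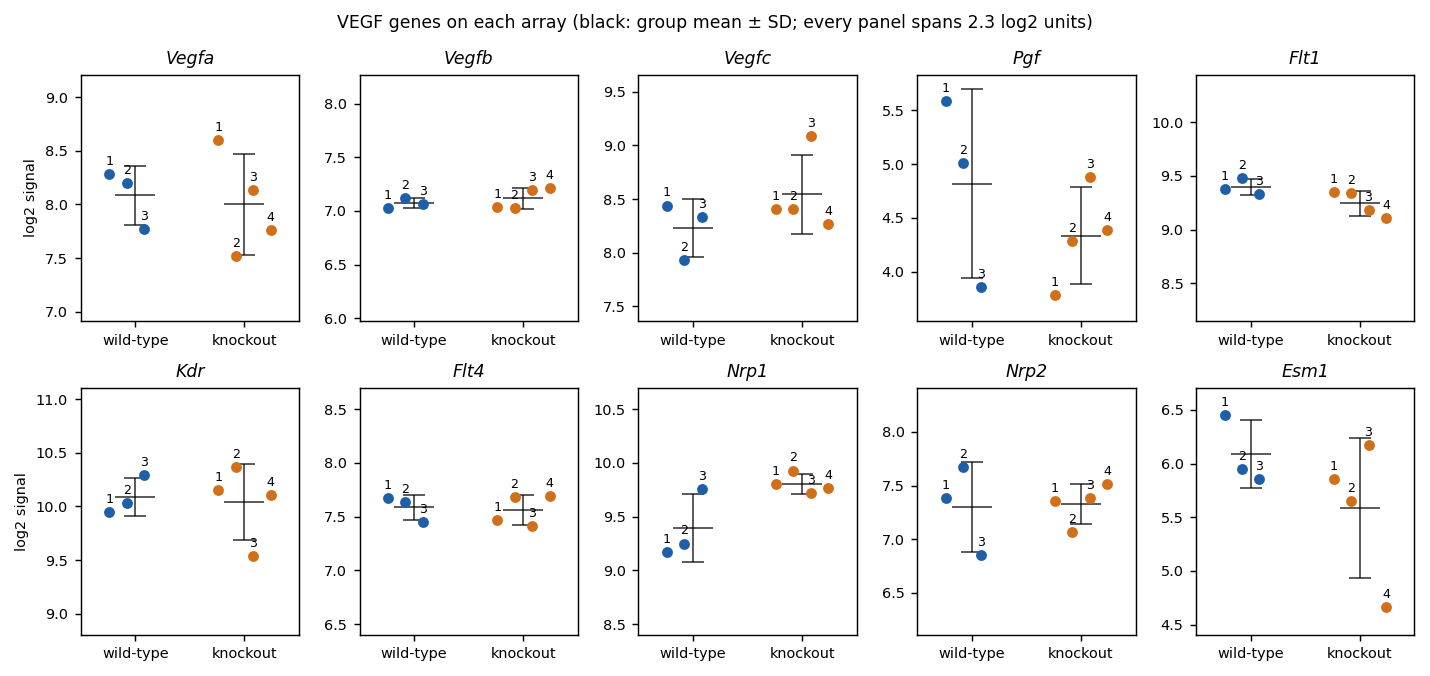
Log2 signal (y axis) of the 10 VEGF genes on each array, grouped by label (x axis: 3 wild-type, blue, and 4 knockout, orange); numbers are replicate numbers and black bars the group mean with SD. In every panel the groups overlap, and Nrp1 is the gene in which wild-type 1 and 2 lie below all 4 knockout-labelled arrays while wild-type 3 lies among them.

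Several facts about the arrays as a whole stand beside each value below. Sash1 itself had a log2 signal of 8.33 on the array labelled wild-type 3, just above the 8.13 to 8.29 of knockout 1, 2 and 4. It read 8.68 on the array labelled knockout 3, near the 8.73 of wild-type 2, and 9.02 on wild-type 1. These 2 arrays, wild-type 3 and knockout 3, thus lay near arrays of the other label. Sash1 differed by only -0.37 between labels (95% confidence interval -0.83 to 0.10, limma adjusted p = 0.971), and the groups overlapped. Its signal therefore does not settle the genotype of any array, and every direction given here rests on the labels. The first principal component of 16626 tested genes, leaving out Sash1 and the VEGF genes, held 36.4% of the variance and placed wild-type 1, wild-type 2 and knockout 3 at 18.1 to 29.6 and the other 4 arrays at -23.2 to -10.1. Dissociation stress and immediate early genes (16 of 16 tested) averaged 8.96 to 9.42 on those same 3 arrays and 7.06 to 8.75 on the other 4. For the sorted cell type, the mean of the 11 pan-endothelial markers varied little, differing by -0.02 between labels and highest, at 10.16, on knockout 2. Single markers varied to unlike degrees. Eng ran from 10.31 to 10.93 and Cldn5 from 9.32 to 9.91, but Cdh5 only from 11.83 to 11.97 and Pecam1 from 11.03 to 11.21. Markers of other cells were measured as well: lung epithelium (14 of 14 tested) averaged 6.91 to 8.0 and 6.15 to 7.79 in the 2 groups, leukocytes (12 of 12) 6.18 to 6.70 and 5.12 to 6.46, fibroblasts and mural cells (13 of 13) 6.60 to 7.00 and 6.52 to 7.24, with the array labelled knockout 4 lowest in all 3 lists. In bulk samples, fewer cells of a type and less RNA per cell cannot be told apart.

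The ligand genes showed no shift common to the 4. Vegfa read 8.28, 8.20 and 7.77 on wild-type-labelled arrays 1 to 3 and 8.60, 7.52, 8.13 and 7.76 on knockout-labelled arrays 1 to 4. The highest and the lowest of the 7 values were thus both knockout-labelled, and the groups overlapped over the whole wild-type-labelled range. Its means were 8.08 ± 0.27 (SD, n = 3) and 8.0 ± 0.47 (SD, n = 4), a difference of -0.08 (95% confidence interval -0.71 to 0.55, limma adjusted p = 0.994). The sign of that difference turned without wild-type 1 (0.02) or knockout 2 (0.08), and the difference was 0 without knockout 4.

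VEGF-A of the lung comes largely from alveolar type 1 cells, whose markers were set beside it. The 9 alveolar type 1 markers tested averaged 7.17, 7.05 and 6.65 on the wild-type-labelled arrays and 7.48, 6.81, 7.29 and 7.05 on the knockout-labelled ones. Knockout 1, highest for Vegfa, was also highest for this list, and wild-type 3 and knockout 2 were lowest for the list and among the 3 lowest for Vegfa. Knockout 4, the other of the 3 lowest for Vegfa (7.76), averaged 7.05 for the list. That was the same as wild-type 2, which read 8.20 for Vegfa. Ager, the defining gene of these cells, read 10.13, 10.04 and 9.15 against 10.40, 9.50, 9.99 and 9.99. Its part in the Vegfa values was not tested.

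Vegfb, the FLT1 ligand best known for a role in heart and fat tissue, hardly varied. It read 7.03, 7.12 and 7.06 on the wild-type-labelled arrays and 7.04, 7.03, 7.19 and 7.21 on the knockout-labelled ones. Its whole range of 0.18 was wider than that of only 4.02% of tested genes, whose median range was 0.60. The difference was 0.05 (95% confidence interval -0.16 to 0.25, limma adjusted p = 0.982), an interval from 89.8% to 119% of the wild-type-labelled level.

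Vegfc, the ligand that drives lymphatic growth, stood out on 1 array. Its values were 8.44, 7.93 and 8.33 against 8.41, 8.41, 9.09 and 8.27, so that knockout 3 was highest and wild-type 2 lowest. The other 3 knockout-labelled arrays lay within the wild-type-labelled range. Group means were 8.23 ± 0.27 (SD, n = 3) and 8.54 ± 0.37 (SD, n = 4), and the difference of 0.31 (95% confidence interval -0.21 to 0.84, limma adjusted p = 0.971) fell to 0.13 without knockout 3 and to 0.16 without wild-type 2.

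Pgf, placental growth factor, which among the 3 receptors followed here is a ligand of FLT1, was the most variable of the 10 genes. It read 5.59, 5.01 and 3.86 on the wild-type-labelled arrays and 3.78, 4.28, 4.88 and 4.39 on the knockout-labelled ones. Wild-type 1, wild-type 2 and knockout 3 were the 3 highest, while wild-type 3 lay next to the lowest, knockout 1. This range of 1.81 exceeded that of 97.9% of tested genes. The difference was -0.49 (95% confidence interval -1.49 to 0.51, limma adjusted p = 0.971), moving to -0.97 if wild-type 3 was left out, to -0.30 for knockout 1 and to -0.10 for wild-type 1. Without both wild-type 3 and knockout 3 it was -1.15 (limma adjusted p = 0.310), in a fit chosen after the data were seen. The 3 arrays high for Pgf were the 3 with the highest mean of dissociation stress genes (9.17, 8.96 and 9.42). The other arrays did not follow that order. Knockout 1 came next for the stress genes (8.75) but was lowest for Pgf (3.78). Knockout 4, lowest for the stress genes (7.06), read 4.39 for Pgf. The part of the stress genes in the Pgf values was not tested.

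A further ligand and the proteins that activate VEGF-C were read from the same arrays. Vegfd, which encodes the other FLT4 ligand, read 7.13, 7.62 and 6.70 against 6.75, 7.11, 7.23 and 7.39, a difference of -0.03 (95% confidence interval -0.59 to 0.53). That sign turned without wild-type 2 (0.20) or knockout 1 (0.09) and with each array centred on its median (0.03). Ccbe1 and Adamts3, whose products together cleave VEGF-C to its active form, differed by 0.07 (-0.15 to 0.29) and 0.21 (-0.08 to 0.50), falling to 0.0067 without knockout 2 for Ccbe1 and to 0.11 without wild-type 3 for Adamts3. In the list of VEGF-D and VEGF-C processing genes, 7 of 7 were tested, 4 differences were positive and 3 negative, 0 passed, and the median was 0.05, or -0.017 without knockout 2.

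The 3 receptor genes had differences from -0.15 (Flt1) to -0.02 (Flt4), none of which passed, and with each array centred on its median Kdr (0.01) and Flt4 (0.03) turned positive. Flt1 read 9.38, 9.48 and 9.33 on the wild-type-labelled arrays and 9.35, 9.34, 9.18 and 9.11 on the knockout-labelled ones. Only knockout 1 and knockout 2 overlapped with the wild-type-labelled range, by exceeding the 9.33 of wild-type 3, and knockout 3 and 4 lay below it. Means were 9.40 ± 0.08 (SD, n = 3) and 9.24 ± 0.12 (SD, n = 4), a difference of -0.15 (SE 0.10, 95% confidence interval -0.38 to 0.07, limma adjusted p = 0.971), or 90.0% of the wild-type-labelled level (77.0% to 105%). With 1 array left out at a time it ranged from -0.19 to -0.11.

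Kdr, the main signalling receptor, read 9.95, 10.03 and 10.29 against 10.15, 10.37, 9.54 and 10.11. Knockout 3 was below every other array, and without it the knockout-labelled values lay inside or just above the wild-type-labelled range. The difference of -0.05 (95% confidence interval -0.52 to 0.43, limma adjusted p = 0.997) turned to 0.12 without knockout 3, to 0.05 without wild-type 3 and to 0.01 with median centring. Kdr is high in aerocytes, the capillary cells of the gas exchange surface, whose 8 markers had 6 positive and 2 negative differences, 0 passing, and a list mean that differed by 0.07. Over all tested genes 53.9% of differences were positive. The median difference of the aerocyte markers, 0.14, was 0.04 without wild-type 3. Apln (-0.39) and Tbx3 (-0.27) were the negative ones, Ednrb (0.05) and Fibin (0.07) were near 0, and Tbx2 (0.36) was the most positive; Tbx3, Ednrb, Fibin and Tbx2 were named after their values were seen. Car4 was the 1 of the 8 without overlap, beside 2.45% of all tested genes. It read 9.51 to 9.63 on the wild-type-labelled and 9.66 to 10.06 on the knockout-labelled arrays. Its difference of 0.22 (95% confidence interval -0.06 to 0.49) did not pass the test (limma adjusted p = 0.971) and fell to 0.13 without knockout 4.

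Flt4 read 7.67, 7.64 and 7.45 against 7.47, 7.68, 7.41 and 7.69, values that fell into the same span under both labels. Its difference was -0.02 (95% confidence interval -0.28 to 0.24, limma adjusted p = 0.997), and 4 of the 7 fits that left out 1 array turned the sign, with values from -0.09 without wild-type 3 to 0.03 without knockout 3. The lymphatic markers (6 of 7 measured and tested) varied far more, averaging 7.62, 7.75 and 6.46 against 6.93, 6.90, 7.61 and 7.50. Their defining transcription factor gene, Prox1, read 5.68 to 5.88 and 5.50 to 5.80 in the groups. Wild-type 3, lowest for the lymphatic list, was the second lowest array for Flt4, after knockout 3, which was among the 3 highest for the list. Its part in the Flt4 values was not tested.

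The promoters of Flt1 and Kdr are shown because both encode receptors of VEGF-A, while their ranges over the 7 arrays differed, 0.37 for Flt1 and 0.83 for Kdr. Each run is the 250 bases before the gene's start in the RefSeq table for GRCm38.p6, written 5′ to 3′ along the gene's minus strand, at chr5:147726012-147726261 for Flt1 and chr5:75978456-75978705 for Kdr. Capitals mark every match, on either strand, to any of 5 motifs. The TATA box was searched as TATAAA. The cAMP response element was searched as TGACGTCA and the GC box, bound by SP1, as GGGCGG. For the core of ETS factor sites the letters were CCGGAA. For the core of the hypoxia response element they were ACGTG. A match of one motif could overlap a match of another.
Flt1: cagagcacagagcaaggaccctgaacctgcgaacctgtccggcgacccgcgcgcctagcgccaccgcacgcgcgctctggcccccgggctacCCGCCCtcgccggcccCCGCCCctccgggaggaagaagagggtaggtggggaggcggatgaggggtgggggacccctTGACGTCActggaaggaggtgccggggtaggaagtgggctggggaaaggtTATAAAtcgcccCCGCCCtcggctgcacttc
Kdr: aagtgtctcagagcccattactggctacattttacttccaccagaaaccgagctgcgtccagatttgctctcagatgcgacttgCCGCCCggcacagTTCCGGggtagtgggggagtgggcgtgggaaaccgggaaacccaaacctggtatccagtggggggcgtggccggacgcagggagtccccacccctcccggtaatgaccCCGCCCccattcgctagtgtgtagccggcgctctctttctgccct
The Flt1 run held TATAAA at -31 to -26 and TGACGTCA at -81 to -74, counted in bases from the start, letters found in 12.4% and 1.55% of 32851 promoter windows of this length, and 3 matches to GGGCGG. The Kdr run held 2 matches to GGGCGG and 1 to CCGGAA, on the opposite strand at -153 to -148, a motif found in 12.0% of windows. No match to ACGTG was found in either, against 16.6% of all windows. These matches describe letters in these windows only.

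The neuropilin genes differed from each other in how they varied. Nrp1 read 9.17, 9.25 and 9.76 on wild-type-labelled arrays 1 to 3 and 9.80, 9.93, 9.72 and 9.77 on the knockout-labelled ones. All 4 knockout-labelled values lay close together and above wild-type 1 and 2, and wild-type 3 fell between knockout 3 and knockout 4. Means were 9.39 ± 0.32 (SD, n = 3) and 9.80 ± 0.09 (SD, n = 4). The difference of 0.41 (SE 0.15, 95% confidence interval 0.05 to 0.77) corresponded to 133% of the wild-type-labelled level (104% to 171%). Its unadjusted p in limma was 0.0303 and its adjusted p 0.971, so that it did not pass.

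Nrp1 kept a positive difference with each array left out in turn, from 0.30 without wild-type 1 to 0.60 without wild-type 3. The unadjusted p in limma was 0.111 without wild-type 1, 0.105 without wild-type 2, 0.0586 without knockout 1, 0.0712 without knockout 2 and 0.053 without knockout 4. It was 0.0441 without knockout 3 and 0.000835 without wild-type 3, where the limma adjusted p was 0.469. Leaving out both wild-type 3 and knockout 3, whose Sash1 values lay near those of the other label, gave a difference of 0.62. Its limma adjusted p was 0.254, in a fit chosen after the data were seen. Knockout 3, which lay with wild-type 1 and 2 on the first principal component, read 9.72 for Nrp1 and lay with the other knockout-labelled arrays. Wild-type 3 lay with knockout 1, 2 and 4 on that component (-23.2), and its 9.76 for Nrp1 lay among the knockout-labelled values too. The part of this split between arrays in the Nrp1 values was not tested.

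Nrp2, which pairs with FLT4 in lymphatic and venous endothelium, read 7.38, 7.67 and 6.85 against 7.36, 7.07, 7.38 and 7.51. The wild-type-labelled arrays held both its highest and its lowest value, and the knockout-labelled ones lay between them. The difference was 0.03 (95% confidence interval -0.45 to 0.51, limma adjusted p = 1), turning to -0.20 without wild-type 3, to -0.03 without knockout 4 and to -0.12 with array weights. Wild-type 3 and wild-type 2 were also the lowest and the highest array for the lymphatic marker list (6.46 and 7.75), whose part in the Nrp2 values was not tested.

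The promoters of both neuropilin genes are shown as the pair in which 1 member was the only VEGF gene with a confidence interval clear of 0 and the other had a difference near 0. Both runs are 250 bases before the start on the plus strand in GRCm38.p6 (RefSeq), at chr8:128358823-128359072 for Nrp1 and chr1:62703067-62703316 for Nrp2, with the same motifs in capitals.
Nrp1: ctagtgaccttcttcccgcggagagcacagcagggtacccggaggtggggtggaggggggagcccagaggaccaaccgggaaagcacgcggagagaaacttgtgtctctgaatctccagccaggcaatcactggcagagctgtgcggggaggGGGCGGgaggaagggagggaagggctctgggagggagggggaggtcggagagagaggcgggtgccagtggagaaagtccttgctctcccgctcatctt
Nrp2: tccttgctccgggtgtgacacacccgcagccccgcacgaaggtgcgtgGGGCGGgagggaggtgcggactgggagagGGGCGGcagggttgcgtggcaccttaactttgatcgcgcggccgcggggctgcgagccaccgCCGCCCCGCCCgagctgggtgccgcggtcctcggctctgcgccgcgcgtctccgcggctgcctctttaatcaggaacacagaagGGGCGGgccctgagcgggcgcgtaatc
Nrp1 held 1 match to GGGCGG and Nrp2 held 5, of which 2 share a base, and neither run held any of the other 4 motifs. Over the first listed promoter of each VEGF gene, matched for 10 of 10, GGGCGG was found in 9 and ACGTG in 0. The second listed promoter of Vegfa, not counted here, held ACGTG at -211 to -207. Among all windows, which include further promoters of the same genes, 32.7% held GGGCGG, so the sets are not alike. Esm1 was the one without GGGCGG, and its window was 44.0% G and C, against a median of 52.4% over all windows and 59.2% to 76.4% in the other 9.

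Esm1 stood low on 1 knockout-labelled array. It read 6.45, 5.95 and 5.86 on the wild-type-labelled arrays and 5.86, 5.65, 6.17 and 4.66 on the knockout-labelled ones. Knockout 4 was about 1 log2 unit below the next lowest array, knockout 2 was also below every wild-type-labelled array, and knockout 1 and 3 lay in their range. The difference of -0.50 (95% confidence interval -1.33 to 0.33, limma adjusted p = 0.971), or 70.6% of the wild-type-labelled level, fell to -0.19 without knockout 4 and to -0.32 without wild-type 1, and was -0.81 without both wild-type 3 and knockout 3. Knockout 4 was also the lowest array for the lung epithelium (6.15), leukocyte (5.12) and dissociation stress (7.06) lists. The epithelial gene Epcam and the leukocyte gene Ptprc read 4.06 and 3.51 there, against 4.65 to 5.31 and 4.45 to 4.85 on the other 6 arrays. Their part in the Esm1 value was not tested. Pecam1, the gene of the sorting antigen, read 11.03 on that array and 11.08 to 11.21 on the others.

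**Figure D2:**
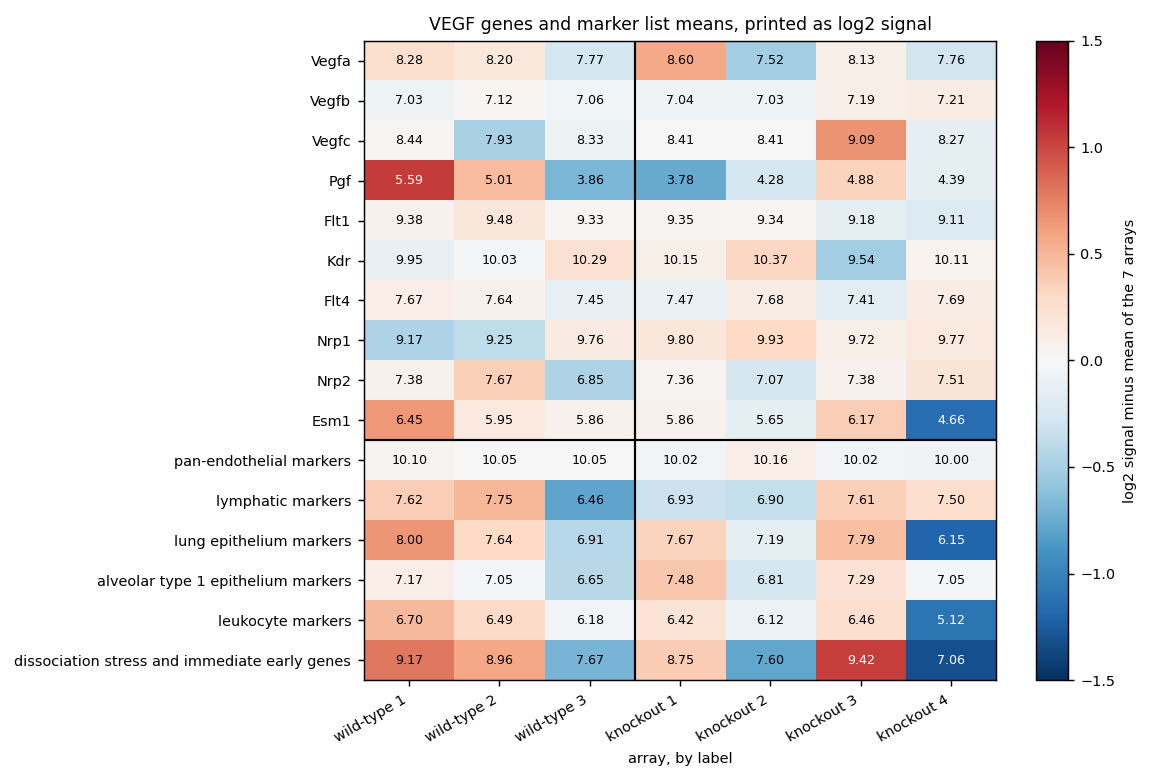
Log2 signal of the 10 VEGF genes (upper rows) and mean log2 signal of 6 marker lists (lower rows) on the 7 arrays, coloured by the deviation from each row's mean over the arrays (log2 units, colour scale ending at -1.5 and 1.5). Esm1 and the epithelial, leukocyte and stress lists share their lowest array, knockout 4, while Nrp1 is lowest on wild-type 1 and 2 and the pan-endothelial list peaks at 10.16 on knockout 2 with little range.

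Genes acting below the receptors, around them and in response to them were read as lists. Of 46 VEGF receptor signalling genes 37 had a probe set with 1 symbol and all 37 were tested. Among them 11 differences were positive and 26 negative, beside 45.6% negative over all tested genes, and 0 passed. The median was -0.05, or -0.02 without knockout 4, and it turned to 0.012 with median centring. Plcg1, the phospholipase that docks on KDR, differed by -0.05 (95% confidence interval -0.36 to 0.26), a sign that turned without wild-type 3 (0.04) or knockout 4 (0.01) and with median centring (0.01). In this list 2 genes had an unadjusted p under 0.05 in limma, as 3.34% of all tested genes did. They were Nck2 (-0.36) and Fyn (-0.28), which were named after their values were seen, and both had an adjusted p of 0.971. Nck2, an adaptor gene, read 4.77, 4.79 and 4.47 against 4.26, 4.37, 4.43 and 4.19, without overlap, as 2.45% of all tested genes did.

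Genes that restrain or traffic VEGF receptors did not pass the test either. All 27 were tested, with 6 positive and 21 negative differences, 0 passing and a median of -0.10 (-0.11 to -0.06 with 1 array left out), beside 45.6% negative over all tested genes. The list averaged 7.90, 7.88 and 7.62 on the wild-type-labelled arrays and 7.62, 7.75, 7.85 and 7.56 on the knockout-labelled ones. Wild-type 1, wild-type 2 and knockout 3 were thus highest, the arrays that lay together on the first principal component. The part of that split in the list was not tested. The 1 gene with an unadjusted p under 0.05 in limma was Rab11a (-0.26), named after its value was seen. Ptprb, the endothelial phosphatase VE-PTP, read 10.62 to 10.77 on the wild-type-labelled arrays and 10.84, 10.79, 10.75 and 10.02 on the knockout-labelled ones in falling order, with knockout 4 apart, and its difference of -0.10 turned to 0.10 without that array. Cdh5, VE-cadherin, a partner of KDR at junctions, differed by -0.05 (95% confidence interval -0.23 to 0.13), a sign that turned with median centring (0.01). Spry4, a feedback inhibitor of growth factor signalling, read 8.67, 8.53 and 9.05 against 8.86, 9.25, 8.86 and 9.40, a difference of 0.34 (95% confidence interval -0.10 to 0.78, limma adjusted p = 0.971).

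Genes that VEGF induces, with tip cell genes, gave 9 positive and 15 negative differences of 24 tested, 0 passing, with a median of -0.11 that was -0.0125 without wild-type 2. The calcineurin inhibitor gene Rcan1, a rapid VEGF target, read 7.64, 7.59 and 6.70 against 6.64, 6.82, 7.68 and 7.57, with wild-type 3 and knockout 1 and 2 low. Dusp5, a phosphatase gene of the same early response that also stands, like Rcan1, in the list of feedback genes, read 6.29, 6.32 and 4.21 against 4.87, 5.08, 6.23 and 5.07. Wild-type 1, wild-type 2 and knockout 3 were thus highest for Dusp5 as they were for Pgf, and its difference of -0.29 turned without wild-type 1 (0.05) or wild-type 2 (0.06). Egr3, an early response transcription factor, differed by 0.18 (95% confidence interval -0.41 to 0.77), turning to -0.02 without knockout 3.

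Among tip cell genes, Apln, the apelin ligand, differed by -0.39 (95% confidence interval -1.01 to 0.24), Angpt2, a ligand of TEK, by -0.16 (-0.48 to 0.15), and Pdgfb, which recruits pericytes, by -0.25 (-0.72 to 0.22). The Notch ligand gene Dll4 differed by 0.02 (-0.22 to 0.25) and the netrin receptor gene Unc5b by -0.09 (-0.40 to 0.23), and both signs turned in fits without knockout 3. The limma adjusted p of these 5 genes ran from 0.971 to 0.998. With 1 array left out, Apln ranged from -0.62 without wild-type 3 to -0.23 without knockout 1, Angpt2 was -0.04 without wild-type 2 and -0.28 without wild-type 3, and Pdgfb was -0.08 without knockout 3 and -0.37 without knockout 2. Both directions occurred in this list: its most positive differences were Cxcr4 (0.79), a chemokine receptor gene of tip cells, and Adm (0.43), and its most negative was Nr4a2 (-0.73), all named after their values were seen. Nr4a2 was the 1 gene of the list with an unadjusted p under 0.05 in limma, and Cxcr4 had an unadjusted p of 0.0579 there.

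Class 3 semaphorins compete with VEGF for neuropilins and signal through plexins. All 12 genes were tested, with 5 positive and 7 negative differences, 0 passing and a median of -0.08, which was 0.011 without wild-type 1 and -0.0025 without wild-type 2. Plxna2 read 8.01, 7.97 and 6.72 against 7.01, 7.07, 6.84 and 6.74, so that wild-type 1 and 2 stood above the other 5 arrays, the reverse of Nrp1. Its difference was -0.65 (95% confidence interval -1.39 to 0.08, limma adjusted p = 0.971), moving to -0.43 without wild-type 1 and -1.08 without wild-type 3. Sema3f, a ligand of NRP2, differed by -0.18 (-0.56 to 0.19), or -0.05 without wild-type 1, Sema3g by -0.13 (-0.78 to 0.53), and Sema3c by 0.23 (-0.26 to 0.72), a value that was 0.00 without wild-type 2. Sema3a, a ligand of NRP1, differed by 0.08 (-0.55 to 0.72), Sema3e by 0.22 (-0.30 to 0.73) and its receptor gene Plxnd1 by -0.05 (-0.52 to 0.41). The signs of Sema3a, Sema3e, Sema3g and Plxnd1 each turned when 1 array was left out.

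Hypoxia induces Vegfa and Flt1 through HIF factors, and a list of hypoxia genes was set beside them. Of 17 genes 16 were tested, with 9 positive and 7 negative differences, 0 passing and a median of 0.02, which was -0.025 without wild-type 3. The list averaged 6.78 to 6.99 on the wild-type-labelled arrays and 7.05, 7.04, 6.50 and 6.96 on the knockout-labelled ones, with knockout 3 lowest, the array that was also lowest for Kdr. Vegfa and Flt1 were not lowest there. On knockout 3 Vegfa read 8.13, inside its range of 7.52 to 8.60, and Flt1 read 9.18, above the 9.11 of knockout 4. The part of hypoxia in these values was not tested.

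**Figure D3:**
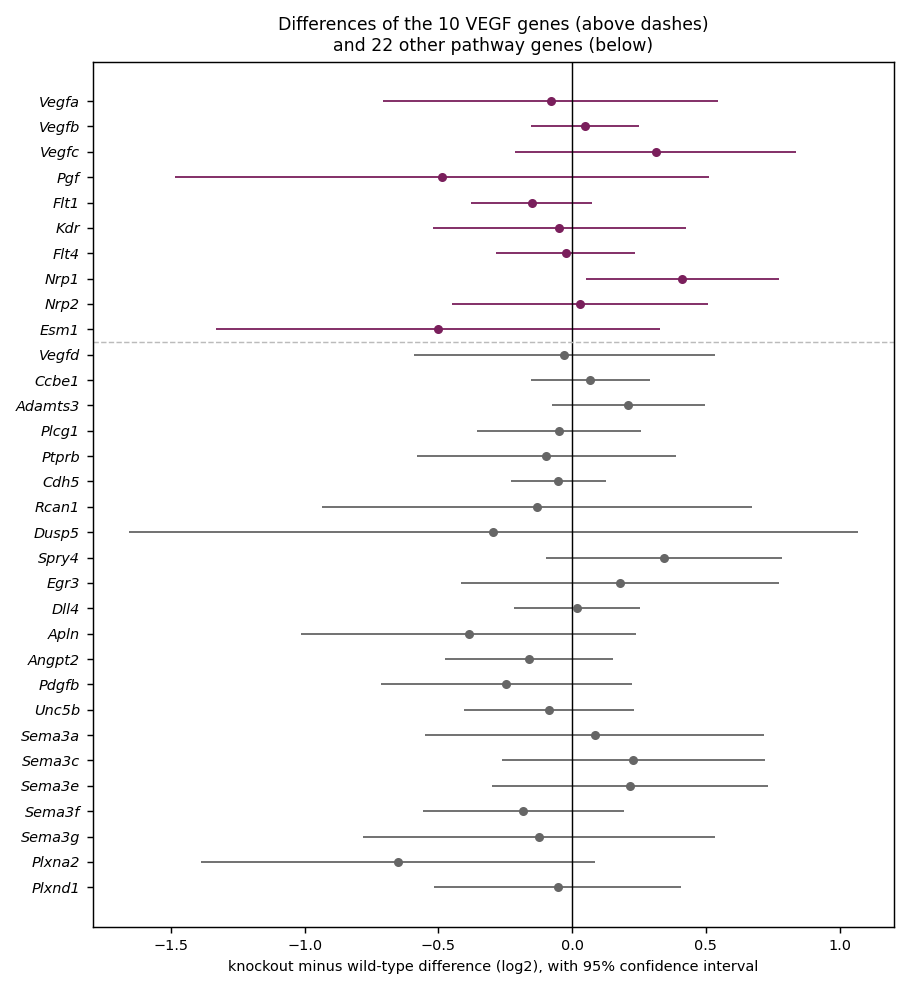
Difference between labels (x axis, knockout-labelled minus wild-type-labelled mean, log2) with its 95% confidence interval for the 10 VEGF genes (above the dashed line) and 22 other genes of the pathway (below). The interval of Nrp1, 0.05 to 0.77, is the one that leaves out 0, and its adjusted p was 0.971.

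**Figure D4:**
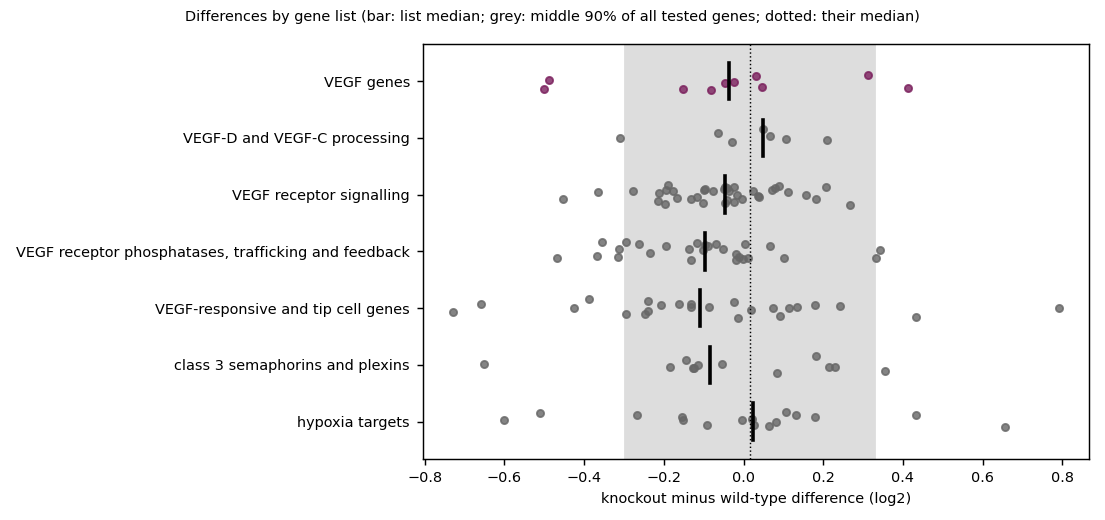
Differences (x axis, log2) of every tested gene in 7 lists (rows), with the list median as a black bar, the middle 90% of all tested genes in grey (-0.30 to 0.33) and their median as a dotted line. Of the VEGF genes, Nrp1 (0.41), Pgf (-0.49) and Esm1 (-0.50) fall outside the grey band.

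For the 3 most variable VEGF genes, the tested genes with the nearest profile over the 7 arrays were found by the mean absolute distance after each gene was centred on its own mean. For Pgf these were Nrarp, a Notch-induced gene (0.104 log2 units), Plaur, the urokinase receptor gene (0.113), and Flrt3 (0.145). Nrarp read 7.42, 6.76 and 5.77 against 5.71, 5.95, 6.86 and 6.42, with the same 3 arrays high. The nearest to Esm1 were Zfp747 (0.0759), Tyrobp (0.107) and Moxd1 (0.135), all lowest on knockout 4. Tyrobp encodes an adaptor of myeloid cells and read 8.05, 7.66 and 7.38 against 7.63, 7.62, 7.80 and 6.42. For Vegfc they were Tmem19 (0.0865), Tox (0.0869) and Ldb2 (0.0886), all highest on knockout 3 and lowest on wild-type 2. Likeness over 7 arrays is a description of these arrays.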

How the data were processed

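Arrays were 1-colour Affymetrix arrays, 1 per sample, after amplification of RNA with a whole-transcriptome kit, per the labels. The authors deposited log2 values per probe set, made by RMA in Affymetrix Expression Console 1.1 per the submitters' processing notes, a scale inferred from their range. Median signals of the 7 arrays over 41345 probe sets were 3.86 to 4.03. No read depth exists for arrays, and their number limits the precision (median 95% confidence interval of 0.345 to either side).

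Probe sets were named through GEO's platform annotation, with symbols updated through a RefSeq table of GRCm38.p6 (99.2% of identifiers found): 23521 had 1 symbol, 1814 several and 16010 none listed. The brightest probe set stood for a gene, and the dimmest 25% of genes (5543) were left out, leaving 16637; all 10 VEGF genes passed. No genome build is stated for the arrays. limma 3.58.1 (lmFit, eBayes) in R 4.3.3 compared the labels with genotype as the only term, two-sided. In simulated data of this comparison with 16637 genes and independent noise, 100 genes were changed by 1 log2 unit and 100 by 2. Of these, 61% and 93% were called, with 9 false calls. Variation shared between genes, as on the first principal component, was not simulated, so these shares may not hold for the real arrays.

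Alternatives were filters of none or 50%, quantile normalization, median centring, trend with robust moderation, no moderation, array weights, the mean of probe sets, the replicate block, a threshold of 0.1 and each array left out; a fit without wild-type 3 and knockout 3 was added later. Named genes were the 10 members, 22 pathway genes and 8 checks fixed by name, and the 3 genes nearest to each of the 3 most variable members. Members and lists were chosen with earlier results of these data known. Promoter windows came from RefSeq.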

Additional observations from a re-analysis of the deposited data

Results flagged for a closer look

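In a test for a single value standing apart among the 4 knockout-labelled arrays, which chance alone passes in about 1 of 20 groups, 1 of the 10 VEGF genes, 5 of 30 other named genes and 3 of 18 lists passed. Vegfc was high on knockout 3 (9.09), only just past the limit. Dusp5, also VEGF-responsive, was high on the same array (6.23), as was the mean of the semaphorin and plexin list (6.45), and the hypoxia list mean was low there (6.50). On knockout 4 the receptor phosphatase gene Ptprb (10.02), the leukocyte gene Ptprc (3.51), the epithelial gene Epcam (4.06) and the surfactant gene Sftpc (10.20) were low. The pan-endothelial list mean was highest on knockout 2 (10.16). Groups of 3, such as the wild-type-labelled one, were not examined in this way, and no cause was tested.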

How the results depend on the processing

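The count of 0 VEGF genes and 0 genes of all called was the same in every alternative run, with the smallest limma adjusted p of any gene at 0.215, without wild-type 3 and knockout 3. The count of all genes at an unadjusted p under 0.05, 556, was 295 without wild-type 2, 1314 without wild-type 3, 1779 without wild-type 3 and knockout 3, 1310 with array weights, and 225 and 367 with the replicate block as a fixed and as a random term. The count of VEGF genes at that level, 1, was 0 without moderation, with the fixed block and without wild-type 1, wild-type 2, knockout 1, knockout 2 or knockout 4, and 2 without wild-type 3 or without both wild-type 3 and knockout 3. Same-numbered arrays deviated oppositely (correlations -0.18, -0.20 and -0.55). These correlations cannot tell whether equal numbers mark a shared litter or batch, since same-numbered arrays lay on opposite sides of the first principal component. The fixed block rests on numbers 1 to 3 and so leaves out knockout 4. Under that block Nrp1 differed by 0.42 (unadjusted p = 0.0949 in limma), Vegfa by 0, Nrp2 by -0.03, Epcam by 0.12, Plcg1 by 0.0067, Ptprb by 0.10, Sema3a by -0.073 and Sftpc by 0.013, and under the random block Pecam1 by -0.0044, signs opposite to the main ones except for Nrp1 and Vegfa, which was -0.08. Median centring, which moved the median of all genes from 0.01 to 0.07, turned Flt4 (0.033), Kdr (0.01), Cdh5 (0.0058), Plcg1 (0.0083), Plxnd1 (0.0033) and Vegfd (0.0275), array weights turned Nrp2 (-0.12), and quantile normalization Pecam1 (-0.021). List medians turned for receptor signalling with median centring (0.012), for hypoxia genes with array weights (-0.035), and with the dimmest 50% of genes left out for semaphorins and plexins (0.015) and processing genes (-0.03). Without wild-type 3 and knockout 3 the turned genes were Kdr (0.22), Nrp2 (-0.21), Ager (-0.12), Egr3 (-0.16), Plcg1 (0.077), Plxnd1 (0.18) and Sema3e (-0.10).

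With 1 array left out in turn, differences ran from -0.28 to 0.08 for Vegfa, 0.02 to 0.08 for Vegfb, 0.13 to 0.42 for Vegfc, -0.97 to -0.10 for Pgf, -0.19 to -0.11 for Flt1, -0.16 to 0.12 for Kdr, -0.0925 to 0.027 for Flt4, 0.30 to 0.60 for Nrp1, -0.20 to 0.21 for Nrp2 and -0.70 to -0.19 for Esm1. They ran from -0.26 to 0.20 for Vegfd, -0.13 to 0.0375 for Plcg1, -0.18 to 0.10 for Ptprb, -0.44 to 0.047 for Rcan1, -0.99 to 0.0625 for Dusp5, -0.02 to 0.34 for Egr3, -0.033 to 0.067 for Dll4, -0.18 to 0.0033 for Unc5b, -0.073 to 0.29 for Sema3a, -0.005 to 0.35 for Sema3e, -0.32 to 0.07 for Sema3g, -0.18 to 0.10 for Plxnd1, -0.027 to 0.033 for Pecam1, -0.34 to 0.12 for Epcam, -0.59 to 0.013 for Sftpc, -0.62 to -0.23 for Apln, -0.28 to -0.04 for Angpt2, -0.37 to -0.08 for Pdgfb, -0.29 to -0.05 for Sema3f, 0.0067 to 0.10 for Ccbe1, 0.11 to 0.30 for Adamts3, 0.13 to 0.26 for Car4 and -0.12 to 0.38 for Ager. The cause of these turns was not tested.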

Other observations

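Of the 16637 tested genes, 2350 (14.1%) had the same deposited value, to 2 decimals, on 4 or more of the 7 arrays. Of the 10 VEGF genes 0 did. Tmem19, the gene nearest to Vegfc in profile, read 5.97 on 4 arrays.

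Fibroblast and mural markers had positive differences in 11 of 13 genes, beside 53.9% of all tested genes, with a median of 0.11. With 1 array left out the median ranged from 0.013 without knockout 1 to 0.27 without knockout 4, and was 0.02 without wild-type 3; without both wild-type 3 and knockout 3 it was 0. Tcf21, a transcription factor gene of lung fibroblasts, read 8.38, 8.32 and 8.0 on the wild-type-labelled arrays and 8.55, 8.47, 8.81 and 8.99 on the knockout-labelled ones, without overlap, at a limma adjusted p of 0.971. It was named after its values were seen, and 2.45% of all tested genes had no overlap. The 2 negative markers, Pdgfrb (-0.20) and Rgs5 (-0.18), were also named after their values were seen. Such a lean was not particular to this list. Differences were negative in 12 of 14 lung epithelium and 10 of 12 leukocyte markers, and positive in 7 of 9 alveolar type 1 markers. General capillary markers had 4 positive and 4 negative.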
